A study of Mus musculus with 20 samples.

Results

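Grem1 and 7 other genes of the bone morphogenetic protein (BMP) pathway were followed across 20 RNA-seq libraries of mouse tumors, namely Grem1, Bmp1, Bmp2, Bmp4, Bmp7, Id1, Id2 and Id3. These 8 of the 54309 genes in the count table were chosen by name, and the choice used measured values, because Grem1 was known to be high with APG-157 plus anti-CTLA-4 and low when that treatment was given with an anti-CD8 antibody. For this reason their levels in groups with APG-157 plus anti-CTLA-4 or anti-CD8 are described without a test, and differences of the 8 genes were tested only between the other groups. Pathway genes outside the 8 were counted in all comparisons, and correlations among the 8 were computed over all 20 libraries and again over the 14 libraries of the other groups. SCCVII, a murine line of head and neck squamous carcinoma, had been grown under the skin of immunocompetent C3H/HeOuJ mice. APG-157 is an oral botanical drug that contains curcumin, anti-PD-1 and anti-CTLA-4 are checkpoint antibodies given by intraperitoneal injection, and the anti-CD8 antibody was given to deplete CD8+ T cells. The 10 groups of 2 libraries (A and B) were APG-157 plus anti-CTLA-4, APG-157 alone, anti-PD-1 alone, anti-CTLA-4 alone, APG-157 plus anti-PD-1, anti-PD-1 plus anti-CTLA-4, APG-157 together with both anti-PD-1 and anti-CTLA-4 (the triple combination), anti-CD8 alone, anti-CD8 plus APG-157 plus anti-CTLA-4, and control. The study describes the anti-CD8 groups in a separate mouse experiment, with its own control and APG-157 plus anti-CTLA-4 groups. The labels do not say from which experiment the control and APG-157 plus anti-CTLA-4 libraries came. A difference between these and the anti-CD8 groups may therefore also be one between experiments, and the 2 cannot be told apart. The labels do not say whether A and B came from separate tumors, so that p-values measure the spread between these libraries, which may be technical. For APG-157 plus anti-CTLA-4 the study's text speaks of only a single small tumor left for other assays, and the sources used here do not state whether both of its libraries came from that tumor, so that each p involving this group treats as separate samples what may be 1 tumor.

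BMPs are secreted ligands of the TGF-β superfamily that bind type I and type II serine/threonine kinase receptors, whose signal passes through SMAD1, SMAD5 and SMAD9 with SMAD4 into the nucleus. Gremlin, the product of Grem1, is a secreted antagonist that binds BMP2, BMP4 and BMP7 and keeps them from their receptors, and in tumors it is known mainly as a product of stromal fibroblasts. The Id genes are classical targets of BMP signaling, and ID proteins bind E proteins, which are basic helix-loop-helix transcription factors, and prevent them from binding DNA. Id2 is also known for its role in lymphocytes, including natural killer cells and CD8+ effector T cells. Bmp1 shares the name but is no BMP ligand: it encodes a metalloproteinase of the astacin family that cleaves procollagens and also chordin, another BMP antagonist.

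The 250 bases before the start site could be read for 4 of the 8 genes (RefSeq, GRCm38.p6), Grem1, Bmp4, Id2 and Id3. They are shown because Grem1 led the choice of genes and because Bmp4 and Id3 varied together across the 20 libraries. Over these, Id2 had r = 0.108 with Bmp4 and 0.116 with Id3. Over the 14 libraries of groups that did not choose the genes, r was 0.536 and 0.438 (adjusted permutation p = 0.164 and 0.233). Bmp1, Bmp2, Bmp7 and Id1 are not shown. Capitals mark the 6-base palindrome GGCGCC, a GC-rich element known to bind BMP-activated SMADs, and GTCT or its reverse complement AGAC, the SMAD box; both strands were searched.
Grem1, chr2:113758649-113758898, strand minus: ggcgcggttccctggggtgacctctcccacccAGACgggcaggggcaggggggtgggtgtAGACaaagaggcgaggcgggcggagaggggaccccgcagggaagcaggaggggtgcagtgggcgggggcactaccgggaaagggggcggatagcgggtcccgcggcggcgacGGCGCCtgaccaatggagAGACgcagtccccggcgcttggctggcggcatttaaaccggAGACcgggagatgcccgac
Bmp4, chr14:46390670-46390919, strand minus: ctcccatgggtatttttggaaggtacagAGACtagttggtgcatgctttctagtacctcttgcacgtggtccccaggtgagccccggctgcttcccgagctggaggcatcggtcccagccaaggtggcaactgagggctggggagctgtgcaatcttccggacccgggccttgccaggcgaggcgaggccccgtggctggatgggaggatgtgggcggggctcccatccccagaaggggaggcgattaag
Id2, chr12:25096093-25096342, strand minus: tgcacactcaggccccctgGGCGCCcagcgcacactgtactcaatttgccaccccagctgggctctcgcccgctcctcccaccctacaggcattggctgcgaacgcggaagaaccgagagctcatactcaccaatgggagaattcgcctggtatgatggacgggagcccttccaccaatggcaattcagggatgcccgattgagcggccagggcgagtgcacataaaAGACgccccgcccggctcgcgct
Id3, chr4:136143572-136143821, strand plus: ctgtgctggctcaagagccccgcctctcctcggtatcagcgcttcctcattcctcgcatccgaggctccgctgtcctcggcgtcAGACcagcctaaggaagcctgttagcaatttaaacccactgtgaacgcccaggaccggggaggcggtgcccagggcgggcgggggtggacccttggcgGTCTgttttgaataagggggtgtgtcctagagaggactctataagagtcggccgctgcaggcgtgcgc
GGCGCC was present once before Grem1, with its first base 78 bases before the start, and once before Id2, 231 bases before the start, and there was no match before Bmp4 or Id3. Of 32851 mouse windows of the same length, 9.59% held GGCGCC. The SMAD box occurred 4 times before Grem1, 2 times before Id3 and 1 time each before Bmp4 and Id2, and 82.9% of all windows held at least 1. The GC content was 72% before Grem1, 63.2% before Bmp4 and 62.8% before both Id2 and Id3, where the median over all windows was 52.4%. A match is a description of the letters and not evidence of binding.

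The libraries held 43920525 to 72081922 counts each. Library B of anti-CD8 plus APG-157 plus anti-CTLA-4 stood apart from all others: the summed level of 8 adipocyte markers was 5152 CPM (counts-per-million, on TMM-scaled library sizes) there, where the other 19 libraries lay between 45.1 and 254.3, and all 8 markers were highest in it. The summed level of 10 skeletal muscle markers was 3976 CPM in library A of APG-157 plus anti-PD-1 and 5253 in library A of the triple combination, 1925 in library B of anti-CTLA-4 alone and 1021 in library A of anti-CD8 alone, and it lay between 6.12 and 388 in the other 16 libraries. The 2 libraries of APG-157 plus anti-CTLA-4 lay closer together than those of any other group, with a coefficient of variation between them of 4.23% (20.4 to 67.1% in the other 9 groups), although their differences were above sampling noise (chi-square per degree of freedom 11.0). Summed Cd8a and Cd8b1, the chains of the CD8 coreceptor, were 0.228 to 0.825 CPM in the 4 libraries given anti-CD8, 16.2 in both APG-157 plus anti-CTLA-4 libraries, and 7.95 and 9.78 in control. Groups without anti-CD8 also varied widely: the sum was 2.20 and 0.928 CPM in APG-157 alone and 47.2 and 1.47 in anti-CTLA-4 alone. It was 58.8 and 5.76 CPM in the triple combination and 39.8 and 82.6 in anti-PD-1 plus anti-CTLA-4. Summed epithelial tumor cell markers were 2246 and 2184 CPM in the APG-157 plus anti-CTLA-4 libraries, above the 18 others (1072 to 2113). Krt8 and Krt18 carried this sum (medians 814 and 975 CPM over 20 libraries). The other markers of the list had medians of at most 4.43 CPM. The mean over the list of log2 CPM with 0.5 added was 2.86 and 2.79 in these libraries. It was 4.09 and 4.94 in anti-CD8 plus APG-157 plus anti-CTLA-4. The sums of mural markers (283 and 266 CPM; 344 to 1462 in the others), of endothelial markers (133 and 138; 153 to 310) and of muscle markers (6.50 and 6.12; 6.71 to 5253) were lower in the APG-157 plus anti-CTLA-4 libraries than in the 18 others.

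All 8 genes were counted in every library and all 8 were among the 19567 genes that passed the filter on low counts, but their levels differed widely. As the median over 20 libraries of CPM per kilobase of exon, Id2 had 25.4, Bmp1 17, Id3 11.8, Id1 6.64 and Bmp2 1.74. The other 3 genes were scarce on this scale, with 0.357 for Bmp4, 0.171 for Grem1 and 0.0199 for Bmp7. Bmp7 rested on 1 to 116 counts a library and Grem1 on 12 to 250, so that their values carry more counting error than those of Id2, with 2436 to 5271 counts. Exons of Bmp4 overlap those of an antisense transcript, Gm15217. The sources used here do not state whether counting used strand, so that it is not known how well reads of the pair were kept apart.

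**Figure D1:**
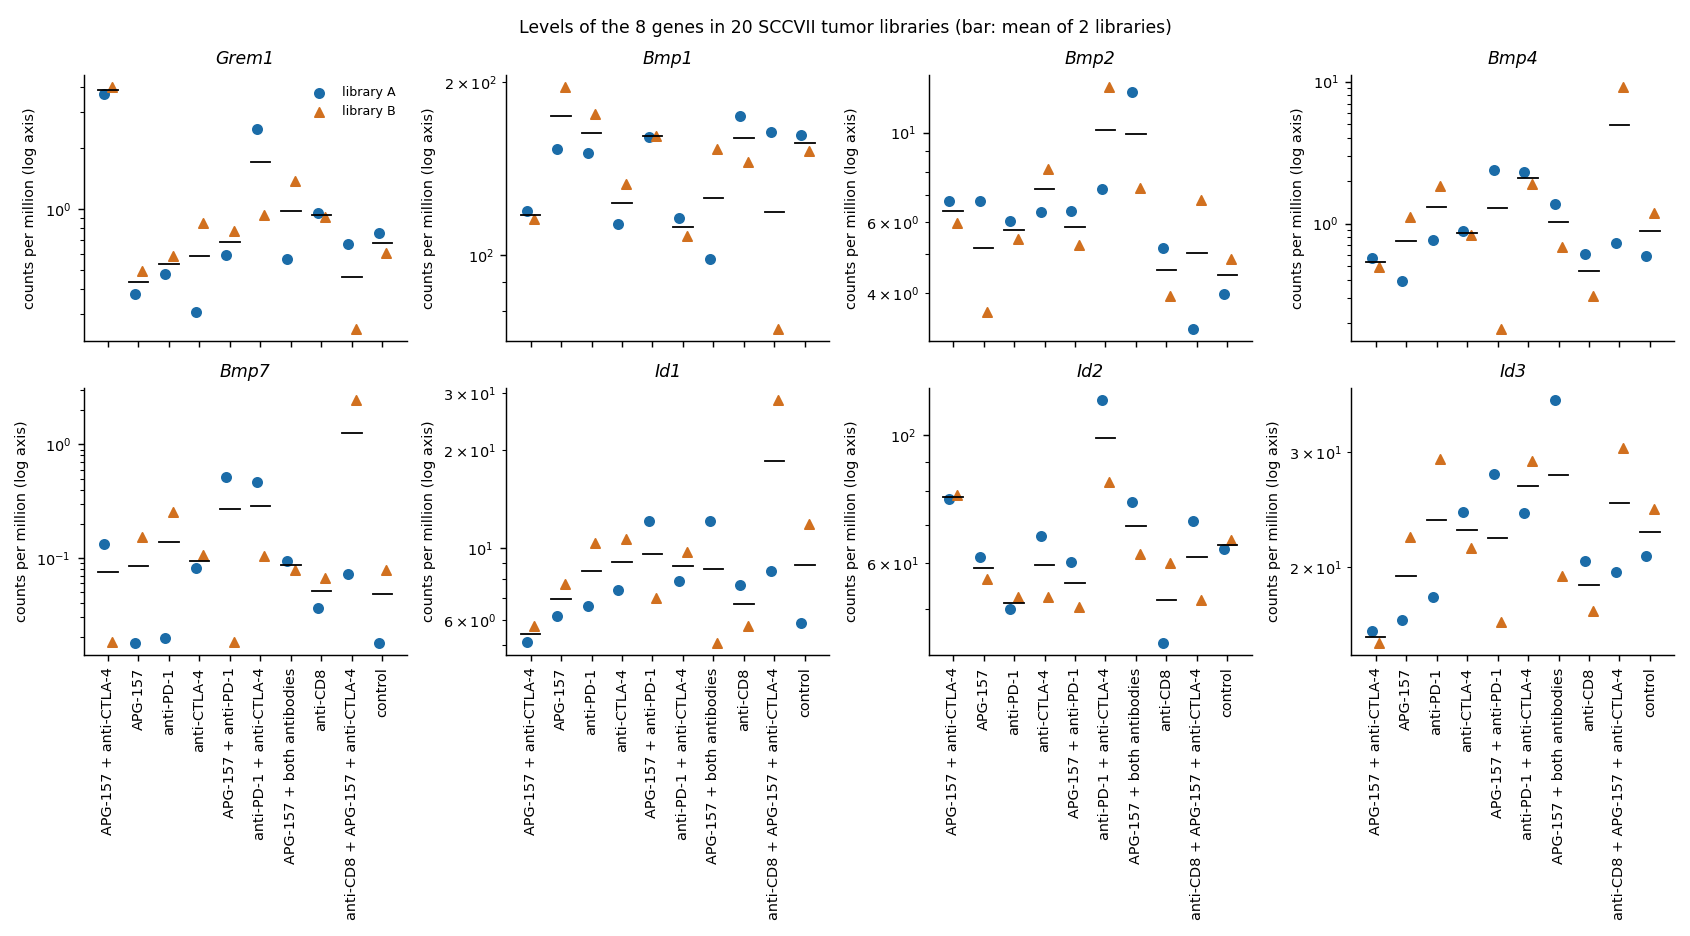
Level of each gene in CPM (log axis) in the 10 groups, with library A as circles, library B as triangles and a bar for the mean of 2 libraries. Grem1 was highest in both APG-157 plus anti-CTLA-4 libraries (3.68 and 4.02), and Bmp4, Bmp7 and Id1 were highest in library B of anti-CD8 plus APG-157 plus anti-CTLA-4.

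Grem1, the BMP antagonist, was highest in the 2 libraries with APG-157 plus anti-CTLA-4, at 3.68 and 4.02 CPM, against 0.754 and 0.603 CPM in control. Neither agent alone came near this level: Grem1 had 0.376 and 0.489 CPM with APG-157, and 0.308 and 0.853 CPM with anti-CTLA-4. The fitted log2 difference between APG-157 plus anti-CTLA-4 and control was 2.50 (SE 0.64), a fold of 5.66, which is given without a test because it chose the gene. The log2 difference was 2.72 (SE 0.64) from anti-CTLA-4 alone and 3.15 (SE 0.66) from APG-157 alone. The first of these was 2.20 without library A and 3.66 without library B of anti-CTLA-4. With the APG-157 plus anti-CTLA-4 libraries summed as 1 sample, the log2 difference from control was 2.51. In bulk tumor RNA, more cells that express a gene and more RNA per cell cannot be told apart.

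In the triple combination, which adds anti-PD-1 to the same pair of agents, Grem1 had 0.566 and 1.38 CPM, below both APG-157 plus anti-CTLA-4 libraries. The next highest level after APG-157 plus anti-CTLA-4 was in anti-PD-1 plus anti-CTLA-4, where library A had 2.48 CPM and library B 0.935. Anti-PD-1 alone had 0.474 and 0.585 CPM and APG-157 plus anti-PD-1 had 0.588 and 0.776. In the order of group means, APG-157 plus anti-CTLA-4 did not overlap with anti-PD-1 plus anti-CTLA-4, the next group. Of the 8 pairs of neighbors below, 7 overlapped and only anti-CD8 alone and APG-157 plus anti-PD-1 did not.

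With anti-CD8 added to APG-157 plus anti-CTLA-4, Grem1 had 0.666 and 0.254 CPM, both within or below the range of the groups other than APG-157 plus anti-CTLA-4. The fitted log2 difference of anti-CD8 plus APG-157 plus anti-CTLA-4 minus APG-157 plus anti-CTLA-4 was -3.05 (SE 0.65), and it was -2.53 without library B and -3.94 without library A of the anti-CD8 combination. Anti-CD8 alone did not go with a low level: it had 0.951 and 0.913 CPM, above both control libraries, and the log2 difference from control was 0.46 (SE 0.61). The 12 markers of fibroblasts, the stromal cells best known for gremlin, summed to 3070 and 2930 CPM in the APG-157 plus anti-CTLA-4 libraries, lower than in all 18 others (4080 to 8852), so that Grem1 and the fibroblast sum lay at opposite ends in these libraries. Col1a1, Col1a2 and Col3a1 carried this sum (medians 1125, 1389 and 2093 CPM, at most 227 for the other markers). The mean over the list of log2 CPM with 0.5 added was 5.07 and 5.01, also below the 18 others (5.85 to 7.72). The part of fibroblasts, of the high epithelial sum (2246 and 2184 CPM, carried by Krt8 and Krt18) and of the low mural and endothelial sums in the Grem1 level was not tested.

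Between the groups that did not choose the genes, Grem1 did not pass the test. Anti-PD-1 plus anti-CTLA-4 minus control gave a log2 fold change of 1.32 (SE 0.62, edgeR adjusted p = 0.826), and over the alternatives it lay between 0.49 and 1.89. Its low end was reached without library A of anti-PD-1 plus anti-CTLA-4, the library with 2.48 CPM. The averaged effect of anti-CTLA-4, taken over 3 pairs of groups that differ by this antibody alone, was 0.66 (SE 0.36, adjusted p = 0.706), and that of anti-PD-1 was 0.61 (SE 0.36, adjusted p = 0.775). The first was 0.34 without library B of anti-CTLA-4 alone, 0.38 without library A of anti-PD-1 plus anti-CTLA-4 and 0.40 without library B of the triple combination, and that of anti-PD-1 was 0.33 without library A of anti-PD-1 plus anti-CTLA-4 and 0.93 without library B of anti-CTLA-4 alone. The averaged effect of APG-157 was -0.36 (SE 0.36, adjusted p = 1.00).

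The genes most like Grem1 across the 20 libraries, among 13957 genes with a mean of at least 1 CPM, were Slc41a2 (r = 0.871), a magnesium transporter, and Gm49339 (r = 0.852), a predicted gene. They were followed by Ahnak (r = 0.850), a large scaffold protein, Rnf11 (r = 0.849), a RING finger protein of ubiquitin signaling, and Piwil2 (r = 0.844), of the PIWI family known from the germ line. The libraries share their tumor line, and 2 of them carry much of the likeness: without APG-157 plus anti-CTLA-4 the same genes had r between 0.564 for Piwil2 and 0.783 for Slc41a2. Piwil2 had 5.70 and 5.63 CPM with APG-157 plus anti-CTLA-4, against 1.71 and 1.69 CPM in control. Slc41a2 had 57.8 and 56.5 CPM with APG-157 plus anti-CTLA-4, against 43.2 and 37.4 CPM in control.

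Of the 3 ligands, Bmp2 had the highest level per kilobase, and both libraries with anti-CTLA-4 exceeded both without it in 3 pairs of groups, short of the adjusted threshold. It was highest in anti-PD-1 plus anti-CTLA-4, with 7.27 and 13 CPM, and in the triple combination, with 12.6 and 7.27 CPM, against 3.99 and 4.86 CPM in control. Anti-CTLA-4 alone had 6.34 and 8.12 CPM, APG-157 alone 6.76 and 3.58, anti-PD-1 alone 6.03 and 5.44, and APG-157 plus anti-PD-1 6.38 and 5.27. Libraries with and without anti-CTLA-4 did not overlap, in the same direction in all 3 pairs, for 2 of the 8 genes (Bmp2 and, downward, Bmp1) and for 2.32% of all genes tested. The averaged log2 effect of anti-CTLA-4 on Bmp2 was 0.77 (SE 0.24), a fold of 1.70, with an adjusted p of 0.501 in edgeR, so that it did not pass the threshold. Under 20 alternatives the effect lay between 0.62 and 0.90 and the adjusted p between 0.102 and 1.00.

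Against control, Bmp2 had a log2 fold change of 1.20 (SE 0.41, adjusted p = 0.730) with anti-PD-1 plus anti-CTLA-4 and of 1.17 (SE 0.41, adjusted p = 0.941) with the triple combination, both from edgeR. The first was 0.74 without library B of anti-PD-1 plus anti-CTLA-4, and the other was 0.75 without library A of the triple combination. These comparisons share the control libraries. APG-157 plus anti-CTLA-4 had 6.78 and 5.98 CPM of Bmp2, and their mean lay between those of anti-CTLA-4 alone and control. This group also differs from APG-157 alone (6.76 and 3.58 CPM) by anti-CTLA-4, and there the libraries overlapped. Anti-CD8 alone had 5.19 and 3.94 CPM, and anti-CD8 plus APG-157 plus anti-CTLA-4 had 3.26 and 6.81 CPM, on both sides of them.

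**Figure D2:**
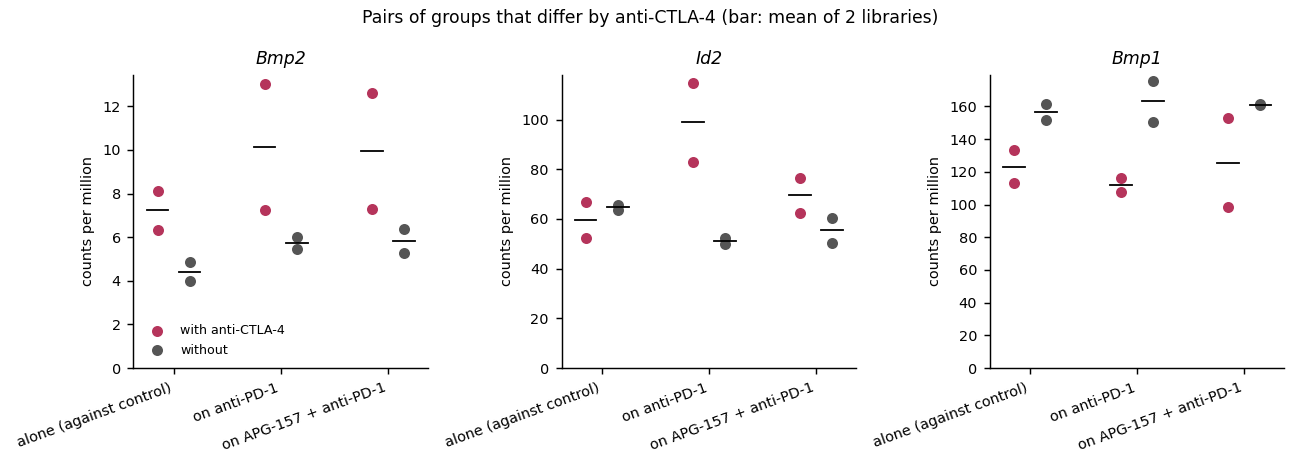
Bmp2, Id2 and Bmp1 in CPM (axes from 0) in 3 pairs of groups, each with anti-CTLA-4 (left, red) and without it (right, gray), 1 point per library and a bar for the mean of 2. Bmp2 lay higher and Bmp1 lower with the antibody in all 3 pairs, and Id2 was highest in anti-PD-1 plus anti-CTLA-4 (115 and 82.9).

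Bmp4 and Bmp7, ligands that gremlin binds, were scarce and were dominated by 1 library. Bmp4 had 0.723 and 9.22 CPM in anti-CD8 plus APG-157 plus anti-CTLA-4 libraries A and B, against 0.574 and 0.493 CPM in APG-157 plus anti-CTLA-4 and 0.592 and 1.19 CPM in control. Bmp7 had 0.0723 and 2.45 CPM in anti-CD8 plus APG-157 plus anti-CTLA-4, against 0.132 and 0.0183 CPM in APG-157 plus anti-CTLA-4 and 0.0180 and 0.0778 CPM in control. Library B is the one with 5152 CPM of adipocyte markers. It also had the highest sums of mural markers (1462 CPM; 266 to 779 in the other 19) and of epidermis and hair follicle markers (35.1 CPM; 1.06 to 8.41) and the lowest of macrophage markers (2971 CPM; 4358 to 8984). Of the 35.1 CPM, Sbsn alone made up 30.7, while the epidermal markers Krt1, Lor and Flg were highest in library A of the same group. Epcam and Cdh1, from the list of epithelial tumor cell markers, were also highest in library B, at 218 and 224 CPM (medians 0.212 and 4.43). The sum of that list was 1420 CPM there, within the range of the other 19 (1072 to 2246). The part of these cell types in the values of library B, for these and all other genes, was not tested. Without that library, the log2 difference of anti-CD8 plus APG-157 plus anti-CTLA-4 minus APG-157 plus anti-CTLA-4 was 0.44 for Bmp4 and -0.10 for Bmp7, where with it these were 3.21 (SE 1.17) and 3.98 (SE 1.70).

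After that library, Bmp4 was highest in library A of APG-157 plus anti-PD-1 at 2.39 CPM, whose library B had the lowest of all 20, 0.180 CPM. Anti-PD-1 plus anti-CTLA-4 came next with 2.31 and 1.89 CPM, followed by anti-PD-1 library B with 1.85, and library A of that group had 0.771. The triple combination had 1.38 and 0.679 CPM of Bmp4, anti-CTLA-4 alone 0.882 and 0.835, APG-157 alone 0.394 and 1.11, and anti-CD8 alone 0.610 and 0.309. In APG-157 plus anti-PD-1 the highest of the remaining libraries and the lowest of all thus stand in 1 group. In library A of APG-157 plus anti-PD-1, muscle markers summed to 3976 CPM and fibroblast markers to 8852 CPM, the highest fibroblast sum of all 20 libraries. The part of these cell types in its Bmp4 level was not tested. The averaged effect of anti-PD-1 on Bmp4 was 0.87 on the log2 scale (SE 0.63, edgeR adjusted p = 0.807), and it was -0.066 without that library. For Bmp7 this effect was 1.56 (SE 0.97, adjusted p = 0.781), with 1 to 29 counts in the libraries compared, and it was 0.32 without library A of APG-157 plus anti-PD-1 and 0.69 without library B of anti-PD-1 alone.

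Bmp1, the procollagen proteinase, ran opposite to Bmp2. It had 113 and 133 CPM with anti-CTLA-4 alone, against 162 and 152 CPM in control. On top of anti-PD-1 the antibody went with 116 and 108 CPM, against 150 and 176 CPM with anti-PD-1 alone. The triple combination had 98.5 and 153 CPM, against 161 and 161 CPM with APG-157 plus anti-PD-1. Averaged over the 3 pairs, the effect of anti-CTLA-4 was -0.42 on the log2 scale (SE 0.17), a fold of 0.750, with an adjusted p of 0.611 in edgeR (0.234 to 1.00 over 20 alternatives). APG-157 plus anti-CTLA-4 lay in the same range with 120 and 116 CPM. APG-157 alone had the highest mean, with 153 and 196 CPM, and anti-CD8 alone had 174 and 146. The lowest library was B of anti-CD8 plus APG-157 plus anti-CTLA-4 with 74.5 CPM, where library A had 164.

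Of the Id genes, Id2 had the highest level per kilobase and differed from the other 2 in its pattern. It was highest in anti-PD-1 plus anti-CTLA-4, with 115 and 82.9 CPM, against 63.5 and 65.7 CPM in control and 49.95 and 52.5 CPM with anti-PD-1 alone. It was next highest in APG-157 plus anti-CTLA-4, with 77.6 and 78.6 CPM, above both control libraries (log2 difference 0.27, SE 0.20, not tested). Anti-CTLA-4 alone had 67.0 and 52.3 CPM, on both sides of control, and APG-157 alone had 61.5 and 56.4. The triple combination had 76.7 and 62.3 CPM, against 60.4 and 50.4 CPM with APG-157 plus anti-PD-1.

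Id2 had an averaged effect of anti-CTLA-4 of 0.39 on the log2 scale (SE 0.12), a fold of 1.31, with an adjusted p of 0.501 in edgeR (0.107 to 1.00 over 20 alternatives). Anti-PD-1 plus anti-CTLA-4 minus control gave 0.61 (SE 0.20, edgeR adjusted p = 0.730), and 0.39 without its library A. The interaction of anti-PD-1 with anti-CTLA-4, added after the values were seen, was 1.06 (SE 0.29, edgeR adjusted p = 1.00) and did not pass the threshold. The summed CD8 chains were also highest in anti-PD-1 plus anti-CTLA-4 library B (82.6 CPM), while library A, with the highest Id2, had 39.8; the part of lymphocytes in the Id2 level was not tested. Id2 had 71.1 and 51.9 CPM in anti-CD8 plus APG-157 plus anti-CTLA-4 and 43.7 and 59.9 CPM in anti-CD8 alone.

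Id1 and Id3, the targets most closely tied to BMP signaling, did not follow Id2. Id1 had 8.46 and 28.5 CPM in anti-CD8 plus APG-157 plus anti-CTLA-4, against 5.12 and 5.74 CPM in APG-157 plus anti-CTLA-4 and 5.85 and 11.8 CPM in control. The value of 28.5 is again that of library B, and the next highest libraries, with 12.1 CPM each, were libraries A of APG-157 plus anti-PD-1 and of the triple combination, with the 2 highest sums of muscle markers (3976 and 5253 CPM). The part of muscle in these values was not tested. Library B of these groups had 7.00 CPM with APG-157 plus anti-PD-1 and 5.10 CPM with the triple combination. Id1 lay between 5.74 and 10.6 CPM in the groups with a single agent. Without library B the log2 difference of anti-CD8 plus APG-157 plus anti-CTLA-4 minus APG-157 plus anti-CTLA-4 was 0.64, where it was 1.77 (SE 0.55) with it.

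Id3 was lowest in APG-157 plus anti-CTLA-4, with 16.0 and 15.3 CPM, against 20.8 and 24.5 CPM in control. The log2 difference was -0.53 (SE 0.33), described without a test. Id3 was highest in library A of the triple combination at 36.1 CPM, with 19.4 in its library B, and had 19.7 and 30.5 CPM in anti-CD8 plus APG-157 plus anti-CTLA-4. The remaining libraries lay between 16.5 CPM (library B of APG-157 plus anti-PD-1) and 29.3 CPM (library B of anti-PD-1). Grem1 was the 1 gene of the 8 for which both APG-157 plus anti-CTLA-4 libraries lay above the 18 others, as did 7.99% of all genes tested, and Id3 was the 1 gene for which both lay below, as did 5.26%. Bmp4, Bmp7 and Id1, 3 of the 8, were highest in library B of anti-CD8 plus APG-157 plus anti-CTLA-4, as were 27.9% of all genes tested.

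Across the 9 comparisons that did not choose the genes (6 groups against control and the 3 averaged effects), 0 of 8 genes passed an adjusted p of 0.05 in edgeR, and 0 of 8 did so in DESeq2. Of all 19567 genes, edgeR passed 0% in 8 of these comparisons and 0.00511% (1 gene) in the averaged effect of anti-PD-1. DESeq2 passed 0.0358% for APG-157, 0.0102% for anti-PD-1, 0.092% for anti-CTLA-4, 0.0204% for APG-157 plus anti-PD-1, 0.092% for the triple combination and 0.404% for anti-PD-1 plus anti-CTLA-4, each against control, and 0.0102%, 0.0511% and 0.736% for the averaged effects, with APG-157 given first, anti-PD-1 next and anti-CTLA-4 last. At an unadjusted p under 0.05, edgeR counted 3 of 8 for the averaged effect of anti-CTLA-4 (Bmp1, Bmp2 and Id2; 7.72% of all genes), 2 of 8 for anti-PD-1 plus anti-CTLA-4 against control (Bmp2 and Id2; 6.04%) and 1 of 8 for the triple combination against control (Bmp2; 4.48%). The other 6 comparisons had 0 of 8, where the share of all genes was 0.761% for APG-157, 0.618% for anti-PD-1, 6.45% for anti-CTLA-4 and 2.43% for APG-157 plus anti-PD-1, each against control, and 2.97% for the averaged effect of APG-157 and 6.08% for that of anti-PD-1. The median log2 fold change over the 8 genes was 0.91 for anti-PD-1 plus anti-CTLA-4 against control, where that over all genes was -0.04. For the averaged effects the medians over the 8 genes were 0.15 for anti-CTLA-4, 0.25 for anti-PD-1 and -0.08 for APG-157. Those over all genes were -5.3e-04, -0.018 and -6.8e-04 in the same order. The 8 include Grem1, whose pattern led the choice, and the scarce Bmp7, so that no shift of the pathway is read from these medians.

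**Figure D3:**
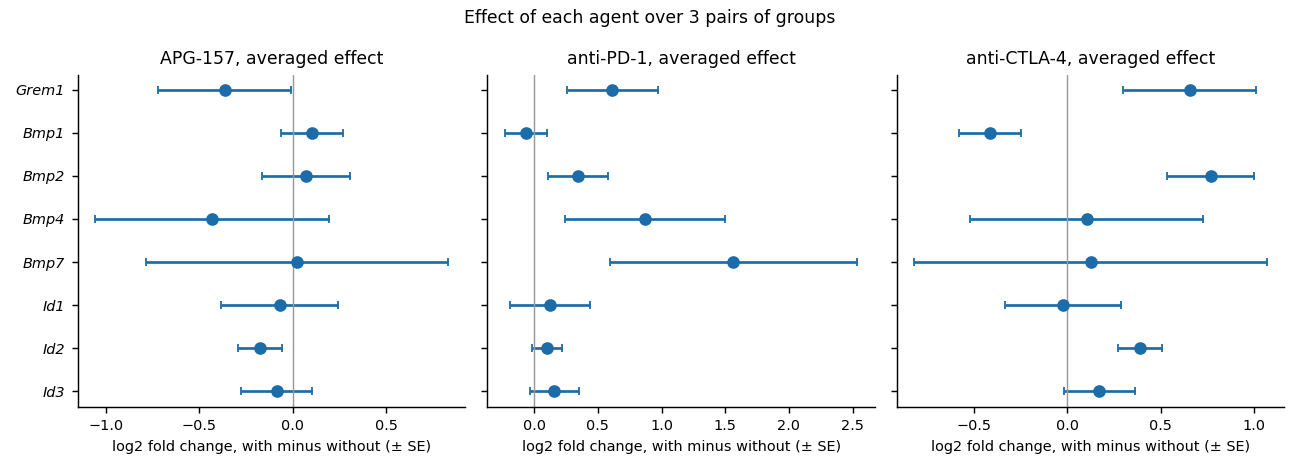
Log2 fold change (point) and its standard error (bar) for each of the 8 genes, as the mean of 3 differences between groups with and without APG-157, anti-PD-1 or anti-CTLA-4 (each panel has its own scale). With anti-CTLA-4, Bmp2 (0.77) and Id2 (0.39) lay above 0 and Bmp1 (-0.42) below it, and none of the 8 passed the adjusted threshold in any panel.

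The genes varied together in part. Permutations moved single libraries freely, although these come as 10 groups of 2, so that each p treats them as independent samples. The 20 libraries also include the groups that chose the genes. Over 20 libraries and 28 pairs, on log2 CPM with 0.5 added, Bmp4 correlated with Bmp7 at r = 0.905 (rho = 0.821, adjusted permutation p = 2.8e-04) and with Id3 at r = 0.769 (rho = 0.895, adjusted permutation p = 3.5e-04). Bmp4 correlated with Id1 at r = 0.858 (rho = 0.809, adjusted permutation p = 3.5e-04), and Id1 with Id3 at r = 0.764 (rho = 0.836, adjusted permutation p = 3.5e-04). The adjusted permutation p of rho was 2.8e-04 for all 4 of these pairs. Without the 2 libraries farthest from the median of the x measure, r was 0.756 for Bmp4 and Bmp7, 0.639 for Bmp4 and Id1, 0.819 for Bmp4 and Id3, and 0.799 for Id1 and Id3. For the differences between libraries A and B of a group, over 10 groups, r was taken through the origin, without centering. It was 0.926, 0.862, 0.807 and 0.840 in the same order, so that these genes also moved together where the treatment was the same. Without library B of anti-CD8 plus APG-157 plus anti-CTLA-4 the 4 values of r over libraries were 0.801, 0.696, 0.827 and 0.813. Those of the differences, over the 9 groups left, were 0.8345, 0.742, 0.846 and 0.842. Over the 14 libraries of the groups that did not choose the genes, added after the values were seen, r was 0.821 for Bmp4 and Bmp7 (adjusted permutation p = 0.00168), 0.802 for Bmp4 and Id3 (0.00644) and 0.762 for Id1 and Id3 (0.0144), while Bmp4 and Id1, at 0.646, no longer passed (0.0630).

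Bmp1 and Bmp2 ran against each other (r = -0.635, rho = -0.686, adjusted permutation p = 0.0144 and 0.00672). Within the 10 A libraries r was -0.767 and within the 10 B libraries -0.558, and r was -0.672 without the 2 libraries farthest from the median of Bmp1. Over the 14 libraries r was -0.835 (adjusted permutation p = 0.00168). Of the 21 pairs without Grem1, 8 had a permutation p of r, adjusted over all 28 pairs, under 0.05, and over the 14 libraries 5 of 21 had. Of these 5, 4 were among the 8. The other was Bmp1 with Id2, with r = -0.664 over the 14 libraries (adjusted permutation p = 0.0442) and -0.403 over all 20. The pairs of Bmp1 with Bmp4 (r = -0.552) and of Bmp7 with Id1 (r = 0.786) were among the 8 but rested on the 2 farthest libraries: without those libraries, r was -0.123 for the first and 0.298 for the other. Bmp7 and Id3 had r = 0.512, and 0.451 without the 2 farthest. Grem1 correlated with Id2 at r = 0.546 and with Id1 at r = -0.492, which are given as a description because the Grem1 pattern chose the genes.

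**Figure D4:**
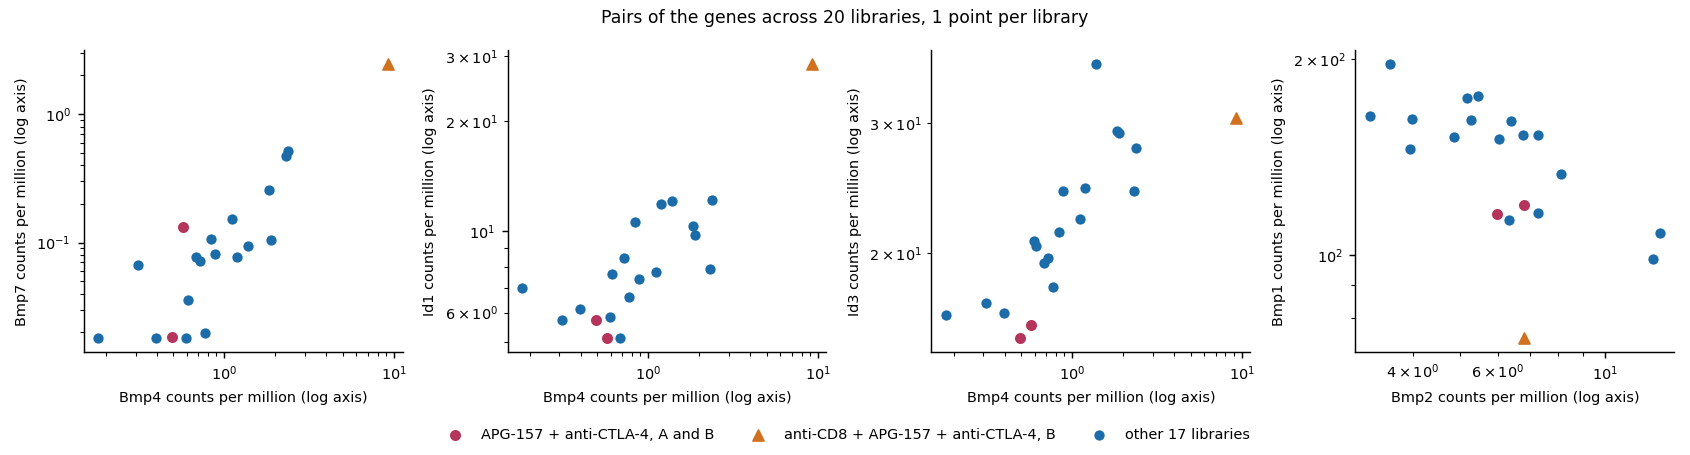
Bmp7, Id1 and Id3 against Bmp4, and Bmp1 against Bmp2, in CPM on log axes, 1 point per library. The triangle at the upper right of the first 3 panels is library B of anti-CD8 plus APG-157 plus anti-CTLA-4, and r without it was 0.801 for Bmp4 and Bmp7, 0.696 for Bmp4 and Id1, and 0.827 for Bmp4 and Id3.

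The genes most like each other gene, by the same measure, were Ccn4, a matricellular protein, for Bmp1 (r = 0.944), Lrrc4 for Bmp2 (r = 0.865), and Adgrg1, an adhesion receptor, for Bmp4 (r = 0.932). For Bmp7 it was Gstm1, a glutathione transferase (r = 0.946, and 0.757 without library B of the anti-CD8 combination). For Id1 it was Mpc2, a subunit of the mitochondrial pyruvate carrier (r = 0.951), for Id2 Anxa4, an annexin (r = 0.913), and for Id3 Dapk2, a death-associated kinase (r = 0.926).

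The rest of the pathway was listed as 65 other genes, 51 of which were tested, and edgeR called 0 of 51 in each of the 9 comparisons that did not choose the genes, with 0 to 5 of 51 at an unadjusted p under 0.05. DESeq2 called 1 in the averaged effect of anti-CTLA-4 (0.736% of all genes): Fst, which encodes follistatin, an antagonist of activins and of some BMPs. Fst had 21.3 and 29.2 CPM with anti-CTLA-4 alone, against 9.61 and 13.1 CPM in control. With anti-PD-1 plus anti-CTLA-4 it had 13.9 and 28.4 CPM, against 12.7 and 11.9 CPM with anti-PD-1 alone. With the triple combination it had 29.0 and 16.4 CPM, against 19.9 and 19 CPM with APG-157 plus anti-PD-1, where the libraries overlap. Fst had an averaged effect of anti-CTLA-4 of 0.72 (SE 0.18) in edgeR, with an adjusted p of 0.369, and 0.73 in DESeq2, with an adjusted p of 0.0211.

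The levels of the other pathway genes are given as mean CPM over 20 libraries, which is not scaled to gene length. Of 5 other ligands tested, those with the highest mean were Gdf5 (0.745 CPM), Bmp6 (0.648) and Bmp3 (0.446). Of the antagonists and modulators these were Fstl1 at 547 CPM, Twsg1 at 159, which encodes twisted gastrulation, and Nbl1 at 23.6. Of the receptors they were Bmpr1a at 110.0 and Bmpr2 at 109.6, the type I and type II receptors of BMP2 and BMP4, and Acvr1 at 65.2. Over the 9 comparisons the log2 fold change lay between -0.24 and 0.14 for Bmpr1a and between -0.45 and 0.06 for Bmpr2. Smad5, a BMP-activated SMAD, averaged 121 CPM, the common partner Smad4 75.1, and Smurf1, a ubiquitin ligase for SMADs, 73.6. The other targets with the highest means were Runx2 at 39.7, Smad7 at 24.9, an inhibitory SMAD, and Msx1 at 4.42. The E proteins that ID proteins bind, Tcf4 at 241, Tcf12 at 136 and Tcf3 at 133, had log2 fold changes between -0.36 and 0.08 over these comparisons. The fibrillar collagens that Bmp1 processes were at 2053 CPM for Col3a1, 1407 for Col1a2 and 1208 for Col1a1.

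In the comparison of anti-CD8 plus APG-157 plus anti-CTLA-4 with APG-157 plus anti-CTLA-4, edgeR called 19 of 51 of these genes (13 higher and 6 lower), where 19% of all genes tested were called (10.8% higher and 8.18% lower). The genes that were higher include Gdf5, a ligand, with 0.969 and 1.14 CPM in anti-CD8 plus APG-157 plus anti-CTLA-4, against 0.103 and 0.183 CPM in APG-157 plus anti-CTLA-4 (log2 fold change 2.88, SE 0.53, adjusted p = 0.0252). Fst was lower, with 10.4 and 10.8 CPM in anti-CD8 plus APG-157 plus anti-CTLA-4, against 27.2 and 27.5 CPM in APG-157 plus anti-CTLA-4 (log2 fold change -1.37, SE 0.32, adjusted p = 0.0261). Of the other targets, 5 of 8 were higher (Id4, Hey1, Msx1, Bambi and Smad6) and 1 was lower (Smad7). Id4 shows how far 1 library carries this: it had 10 and 1993 counts in anti-CD8 plus APG-157 plus anti-CTLA-4 libraries A and B, against 1 and 0 counts in APG-157 plus anti-CTLA-4.

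The count was 0 of 51 without library B of anti-CD8 plus APG-157 plus anti-CTLA-4, where 0.0394% of all genes were called, and 36 of 55 without its library A, where 40.7% were. It was 0 of 55 when either APG-157 plus anti-CTLA-4 library was left out (0.00909% of all genes) or both were summed as 1 sample (0.0091%). Without library B the log2 fold change was 2.76 for Gdf5 and -1.40 for Fst, nearly as with it, while it was 0.57 for Hey1 (2.41 with it), 0.44 for Msx1 (1.37 with it) and 0.93 for Bambi (2.36 with it). In the other 6 comparisons with these groups edgeR called 0 of 51, where 0 to 0.0204% of all genes were called. At an unadjusted p under 0.05 the count was 12 of 51 for APG-157 plus anti-CTLA-4 against control (11.1% of all genes), 17 of 51 against anti-CTLA-4 alone (23.6%) and 12 of 51 against APG-157 alone (9.35%). It was 0 of 51 for anti-CD8 alone against control (1.19%), 13 of 51 for anti-CD8 plus APG-157 plus anti-CTLA-4 against control (19.1%) and 16 of 51 against anti-CD8 alone (25.7%). DESeq2 called 5 of 51 for APG-157 plus anti-CTLA-4 against control (1.87% of all genes), 11 of 51 against anti-CTLA-4 alone (14.3%) and 7 of 51 against APG-157 alone (1.87%). It called 0 of 51 for anti-CD8 alone against control (0.0307%), 3 of 51 for anti-CD8 plus APG-157 plus anti-CTLA-4 against control (6.76%) and 5 of 51 against anti-CD8 alone (9.76%). These groups chose the 8 genes, and nothing is read from the counts.

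**Figure D5:**
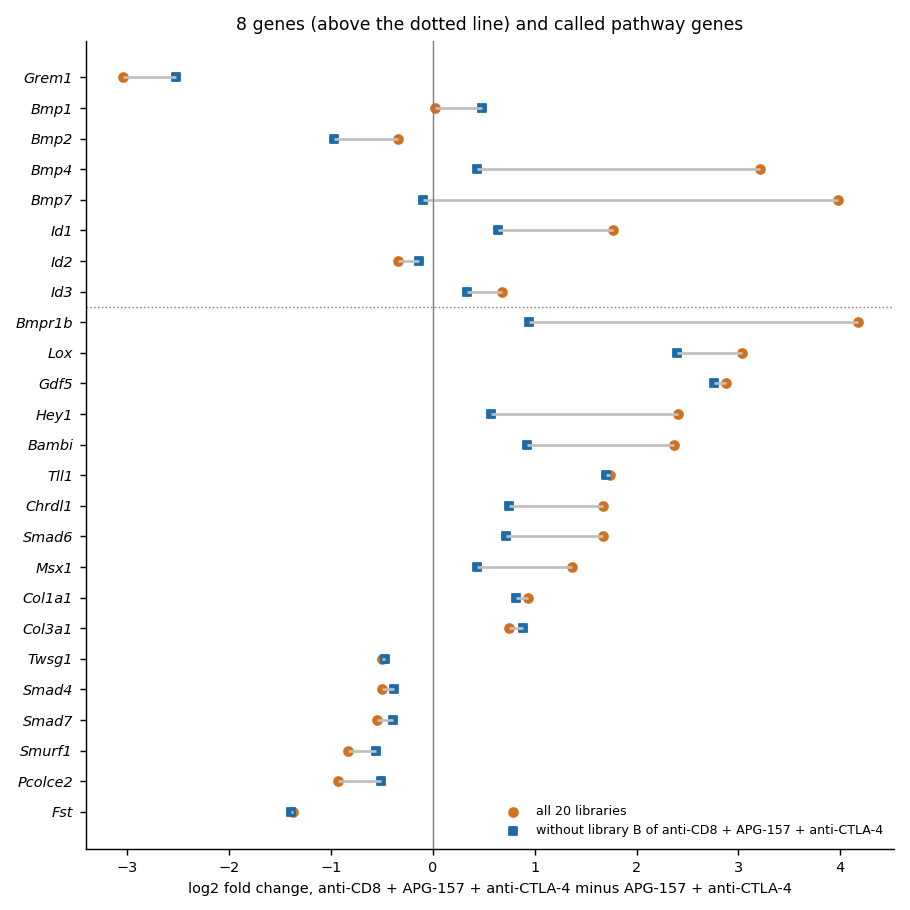
Log2 fold change of anti-CD8 plus APG-157 plus anti-CTLA-4 minus APG-157 plus anti-CTLA-4 with all 20 libraries (circles) and without library B of the anti-CD8 combination (squares), for the 8 genes above the dotted line and 17 called pathway genes below it (Id4 and Bmp5, with 1 count in all in APG-157 plus anti-CTLA-4, are left out). Grem1 stayed at -2.53 without the library, while Bmp4 moved to 0.44, Bmp7 to -0.10 and Id1 to 0.64.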

How the data were processed

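RNA of SCCVII tumors was sequenced as mRNA libraries (KAPA kit). The authors trimmed reads with Trimmomatic 0.39 and estimated transcript abundance with Salmon on GENCODE mouse transcripts (GRCm39; the submitters' notes give Salmon 1.5.0), summed to genes, and deposited these expected counts without scaling. A second deposited table, on a log2 scale, was not used. Of 54309 genes, 51484 had a symbol; 20 columns were matched to 20 samples by name.

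Expected counts were rounded. Genes were kept by filterByExpr with the 10 groups given (count of at least 10, total of at least 15), scaled by TMM and fitted over all 20 libraries (edgeR 4.0.16, robust quasi-likelihood, 10 residual degrees of freedom, common biological coefficient of variation 38.7%), with Benjamini-Hochberg adjustment over 19567 genes and a threshold of 0.05. CPM uses TMM-scaled library sizes. An averaged effect is the mean of 3 differences between groups that differ by 1 agent, leaving out APG-157 plus anti-CTLA-4 and both anti-CD8 groups. DESeq2 1.42.0 (R 4.3.3), no low-count filter, keeping genes with a mean CPM of 1 or more, RLE scaling, a log2 fold minimum of 1, the letter as a block, fits on compared groups only and each library left out were alternatives. Correlations used 100000 permutations of single libraries without regard to group (Python 3.11.15), adjusted over 28 pairs. The scripts were tested on simulated data. Promoter sequences came from RefSeq and were used for letters only, since the counts are on another build.

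The 8 genes, the gene lists and the tests were chosen with earlier results of these data known. The genes named are the 8, for each pathway list the 3 others with the highest mean CPM and any called, the 5 genes most like Grem1 and those most like each other gene; Fst, Gdf5, Id4, Hey1, Msx1, Bambi and Smad6 and Smad7 in the anti-CD8 comparison were named after their values were seen.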

Additional observations from a re-analysis of the deposited data

How the results depend on the processing

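The 8 genes had 0 calls in all 9 tested comparisons under every alternative run, including each library left out (0 to 0). The replicate letters did not pair the samples (45 pairs of groups, r of deviations -0.44 to 0.75, over 0.1 in 14), and the replicate block left the 19 pathway genes of anti-CD8 plus APG-157 plus anti-CTLA-4 minus APG-157 plus anti-CTLA-4 at 19 and every other count at 0. That count was 12 of 51 with a log2 fold over 1 (10.4% of all genes), 10 of 63 with no filter (5.92%), 29 of 51 in DESeq2 (29.4%), 0 with the APG-157 plus anti-CTLA-4 libraries summed (chosen after seeing the data), 0 of 45 on the compared groups only (0%), and 0 to 36 with each library left out. The other pathway counts, 0 in the fit reported, were for APG-157 plus anti-CTLA-4 minus control 5 in DESeq2 and 5 of 44 on the compared groups only (4.21% of all genes). For APG-157 plus anti-CTLA-4 minus anti-CTLA-4 they were 2 of 39 with the filter at 1 CPM (6.78%), 11 in DESeq2, 9 of 45 on the compared groups only (14.3%) and 4 of 51 (5.65%) when the fit left out the adipocyte-rich library (B of anti-CD8 plus APG-157 plus anti-CTLA-4; chosen after seeing the data). For APG-157 plus anti-CTLA-4 minus APG-157 they were 1 of 63 with no filter (0.0882%), 7 in DESeq2, 3 of 45 on the compared groups only (0.548%), 1 of 51 without that library (0.158%) and 0 to 1 of 55 with each library left out (1 without APG-157 library A, 0.25%). For anti-CD8 plus APG-157 plus anti-CTLA-4, DESeq2 gave 3 against control and 5 against anti-CD8 alone, and leaving out each library gave 0 to 25 and 0 to 23, the highest without library A of that group (of 55, where 30.2% and 35% of all genes were called). Over the tested comparisons DESeq2 called 1 pathway gene, Fst. With each library left out, the averaged effect of anti-PD-1 on Bmp4 lay between -0.066 and 1.20, where it was 0.87 with all of them, and the negative value came without library A of APG-157 plus anti-PD-1. Of the 21 correlated pairs without Grem1, 8 passed, 7 with 0.1 CPM added, 8 with RLE scaling, 6 without library B of the anti-CD8 combination and 5 over the 14 libraries of groups that did not choose the genes (both chosen after seeing the data). Of those 6 and 5, respectively 5 and 4 were among the 8 that passed. The causes of these changes were not tested. With 2 libraries a group, a gene that was not called is not shown to be unchanged, and Bmp7, at 1 to 116 counts, allows no firm statement on direction.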
